A study of Triticum aestivum with 9 samples.

Results

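In filling grains of bread wheat, 12 of 133744 annotated transcripts were near silent at 20 and 30 °C and present in every plant at 40 °C. They were picked by their FPKM (fragments scaled to transcript length and to the library's total), which had to lie under 0.5 in each of the 6 plants at 20 and 30 °C and at 2 or more in each of the 3 plants at 40 °C. The 12 transcripts belonged to 12 of the 107891 genes in the tables. Because these values chose the transcripts, the levels at 20, 30 and 40 °C are given as a description, and p-values of the members from the fits over all transcripts are not used. The name "switched on" holds at these limits and not at zero, since 10 of the 12 had fragments in at least 1 plant at 20 or 30 °C.

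All plants were the cultivar Chinese Spring, a hexaploid wheat whose A, B and D subgenomes carry related copies of most genes. They were brought to 20 °C 12 days after flowering and kept there for 3 days. The control plants then stayed at 20 °C, while the mild and severe heat groups were moved to 30 and 40 °C, and grains of the main stem were taken after 1 h. Each of the 9 samples was 1 independent plant, 3 per temperature, so the values describe 1 genotype, 1 exposure time and whole grains, in which fewer cells of a type and less RNA per cell cannot be told apart. All 9 genes of a list of starch synthesis genes of the endosperm, the storage tissue of the grain, lay between 29.97 and 887 FPKM in every sample, although the extraction text of the labels names an animal cell type. Their summed FPKM was 3486.2 to 4288.2 at 20 °C, 2467.5 to 2842.5 at 30 °C and 2551.0 to 3655.3 at 40 °C. Whether the make-up of the grains differed between temperatures was not tested.

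Plants meet sudden heat with a fast transcriptional programme, in which heat stress transcription factors bind short elements in promoters and call up chaperones and other protective proteins. Heat also alters splicing, so that a gene already in use can begin to yield another transcript. The deposited tables pair none of the 12 identifiers with a gene name, and the RefSeq gene table of wheat holds no identifier of this kind. No role or sequence is therefore given for any member, and members are ordered by whether their gene has other transcripts and by the number of fragments behind their values.

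The total expected count lay between 15778561 and 19497182 fragments per sample. Replicate 3 at 40 °C stood apart from the other 8 samples. It had 38710 transcripts above 1 FPKM against 41286 or more elsewhere, and its TMM scaling (edgeR's trimmed mean of M-values, which corrects for a few very abundant transcripts) was 0.820 of its total against 0.961 to 1.052 elsewhere. FPKM does not contain this scaling. The number of members, their median spread at 40 °C and tests of other transcripts are also given without this plant. Means, ratios and shares at 40 °C, and the chromosomes of members, rest on all 3 heated plants.

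At 40 °C, 25169 transcripts had 2 FPKM or more in every plant, and the 12 members made up 0.0477% of them. Seen from the other side, 66353 transcripts were under 0.5 FPKM in all 6 plants at 20 and 30 °C, and 12 of these (0.0181%) reached 2 FPKM in all 3 plants at 40 °C. A further 20 reached it in exactly 2 plants and 132 in exactly 1, so 7.32% of the 164 transcripts that reached 2 FPKM anywhere at 40 °C did so in every plant. The same limits with 20 °C as the high temperature gave 2 transcripts of 68336 (0.00293%) in all 3 plants, 8 in exactly 2 and 126 in exactly 1. With 30 °C as the high temperature they gave 0 of 66180, with 6 in exactly 2 plants and 82 in exactly 1. The temperatures thus gave similar orders of number for single plants, and 40 °C gave the highest number for all 3 plants. Without 40 °C replicate 3 the count of members was 20 in place of 12, and without any other single plant it was 12 to 18. Leaving out a plant removes a condition of the rule, so the count could only stay at 12 or rise.

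**Figure D1:**
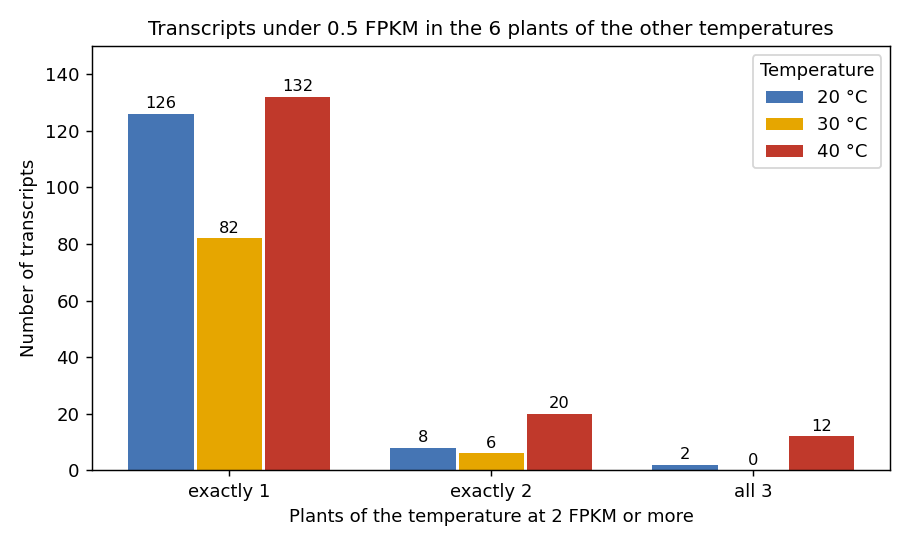
Number of transcripts (y axis) that were under 0.5 FPKM in the 6 plants of the other temperatures and reached 2 FPKM in exactly 1, exactly 2 or all 3 plants of the temperature shown (x axis; bar colour is the temperature). Bars for 1 plant stand at 126, 82 and 132, while those for all 3 plants stand at 2, 0 and 12 for 20, 30 and 40 °C.

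The mean FPKM of the members at 40 °C ran from 2.70 to 6.82, with a median of 4.48 over the 12. The highest value of a member in a single plant was 8.51 and the lowest at 40 °C was 2.04. Summed over the 12 members, 114.9 expected fragments were counted in the plants at 20 °C, 160.5 at 30 °C and 2669 at 40 °C. Between 20 and 30 °C the members had no common direction under the limit of 0.5 FPKM. The mean was higher at 30 °C for 7 members, lower for 3 and at 0 at both temperatures for 2.

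**Figure D2:**
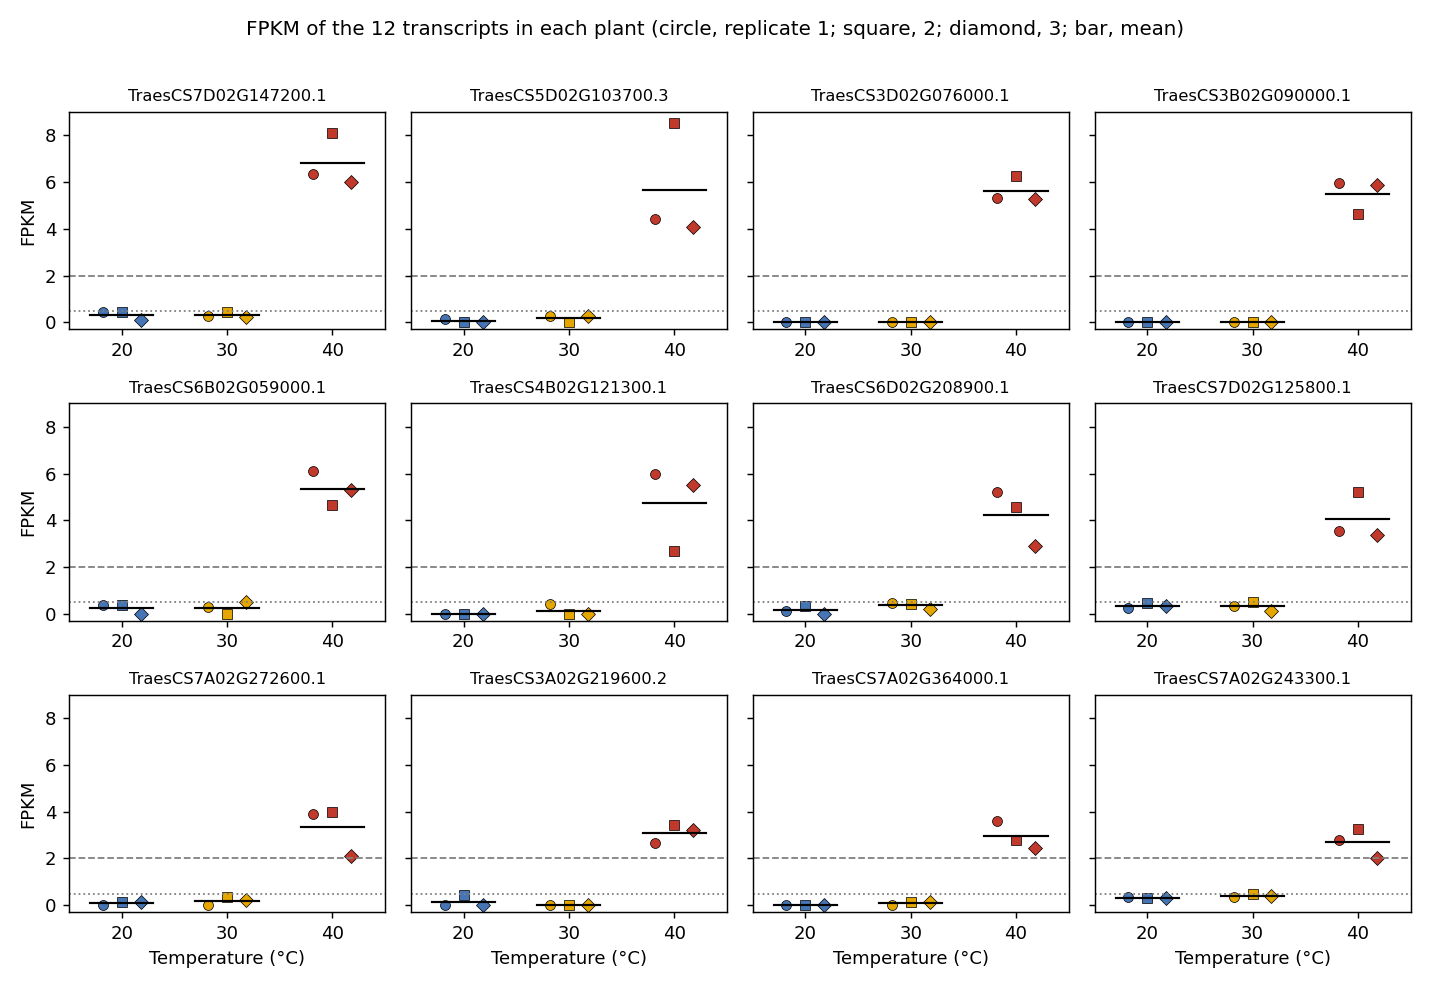
FPKM (y axis) of each of the 12 transcripts in single plants at 20, 30 and 40 °C (x axis), ordered by mean FPKM at 40 °C; symbols mark the replicate, bars the mean of 3 plants, and the dotted and dashed lines the limits of 0.5 and 2 FPKM. All values at 20 and 30 °C lie at 0.49 or below and all values at 40 °C at 2.04 or above, with the widest spread for TraesCS5D02G103700.3 (4.07 to 8.51).

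Of the 12 genes, 9 had a single annotated transcript. Among these, TraesCS3D02G076000.1 and TraesCS3B02G090000.1 were listed at 0 in all 6 plants at 20 and 30 °C. TraesCS3D02G076000.1, of 258 bases, had 5.31, 6.27 and 5.29 FPKM in the plants at 40 °C (5.62 ± 0.560, SD, n = 3). These levels rested on 6, 8 and 6 fragments. TraesCS3B02G090000.1, of 282 bases, had 5.95, 4.62 and 5.88 FPKM (5.48 ± 0.749, SD, n = 3) from 9, 8 and 9 fragments. They were the shortest members and lay above the median of the members by FPKM, but had the fewest fragments. In so short a transcript 1 fragment was worth 0.800 to 0.976 FPKM for TraesCS3D02G076000.1 and 0.597 to 0.719 FPKM for TraesCS3B02G090000.1, so the limit of 0.5 FPKM admitted no fragment at all. Taking 3 counts per library as the floor, TraesCS3D02G076000.1 was at least 1.99-fold higher at 40 °C and TraesCS3B02G090000.1 at least 2.62-fold higher, on counts scaled to the library's total (CPM). With this floor the counts show presence at 40 °C in 3 of 3 plants, and little about the size of the difference. The floor takes 1 library alone, and the 6 cooler plants were not pooled for it. The floor covers counting error only.

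TraesCS7A02G364000.1 and TraesCS7A02G272600.1 had few fragments in the cooler plants. TraesCS7A02G364000.1 was at 0 in every plant at 20 °C, at 0, 0.13 and 0.12 FPKM at 30 °C and at 3.60, 2.80 and 2.47 FPKM at 40 °C. It had 2 fragments over the 6 cooler plants and 74 at 40 °C. TraesCS7A02G272600.1 had 0, 0.12 and 0.12 FPKM at 20 °C, 0, 0.36 and 0.22 at 30 °C, and 3.91, 3.98 and 2.10 at 40 °C. It had 7 fragments over the cooler plants and 89.1 at 40 °C. In both transcripts replicate 3 at 40 °C was the lowest of the 3 heated plants, and in TraesCS7A02G272600.1 it was close to the limit of 2 FPKM.

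TraesCS7D02G147200.1 had the highest mean of all members. It was at 0.43, 0.44 and 0.09 FPKM at 20 °C, at 0.27, 0.43 and 0.24 at 30 °C, and at 6.36, 8.10 and 5.99 at 40 °C (6.82 ± 1.13, SD, n = 3). The mean at 40 °C was 21.5 times the mean of the 6 cooler plants. TraesCS6B02G059000.1 was similar in size, with 0.36, 0.37 and 0 FPKM at 20 °C, 0.28, 0 and 0.49 at 30 °C, and 6.11, 4.66 and 5.31 at 40 °C (5.36 ± 0.726, SD, n = 3), a ratio of 21.4. It was undetected in 1 plant at each of the cooler temperatures, and 1 plant at 30 °C lay just under the limit. TraesCS6D02G208900.1 had 0.11, 0.35 and 0 FPKM at 20 °C, 0.48, 0.42 and 0.21 at 30 °C, and 5.20, 4.58 and 2.88 at 40 °C, a ratio of 16.1. Here too replicate 3 at 40 °C was the lowest heated plant.

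TraesCS7D02G125800.1 and TraesCS7A02G243300.1 were never at 0, which also held for TraesCS7D02G147200.1. TraesCS7D02G125800.1 had 0.23, 0.44 and 0.32 FPKM at 20 °C, 0.34, 0.49 and 0.12 at 30 °C, and 3.55, 5.23 and 3.36 at 40 °C (4.05 ± 1.03, SD, n = 3). TraesCS7A02G243300.1, the longest member with 3450 bases, had 0.35, 0.29 and 0.33 FPKM at 20 °C, 0.34, 0.49 and 0.39 at 30 °C, and 2.78, 3.28 and 2.04 at 40 °C (2.70 ± 0.624, SD, n = 3). They held 61.1 and 119.1 fragments over the 6 cooler plants, and their ratios of mean FPKM, 12.5 and 7.40, were the lowest of the 7 members with more than 10 such fragments. In TraesCS7A02G243300.1 a single fragment was worth at most 0.0195 FPKM, so that 27 fragments in 30 °C replicate 2 still fell under the limit. The same limit therefore meant no fragment for the shortest members and up to 27 for the longest.

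The remaining 3 members came from genes with several annotated transcripts, and in all 3 genes another transcript was already on, that is at a mean of 1 FPKM or more at 20 or 30 °C. In these genes the member passed the limit of 2 FPKM at 40 °C in a gene already in use. Each of the 3 members also had some expected fragments in at least 1 cooler plant. The share of members from genes with several transcripts was 25%, against 32.0% of all annotated transcripts and 29.7% of those with a mean above 1 FPKM at 40 °C. RSEM, the program behind the tables, divides fragments by likelihood among the transcripts they match, of the same gene or of other genes. The values of a member and of the other transcripts of its gene are therefore not independent.

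In TraesCS4B02G121300 the member was transcript 1, of 2330 bases. It was at 0 in 5 of the 6 cooler plants, at 0.41 FPKM in 30 °C replicate 1, and at 6.0, 2.69 and 5.5 FPKM at 40 °C (4.73 ± 1.78, SD, n = 3). The other transcript, TraesCS4B02G121300.2, was on at all temperatures, with 1.5, 1.04 and 1.47 FPKM at 20 °C, 3.38, 4.71 and 3.29 at 30 °C, and 12.9, 18 and 12.6 at 40 °C. It did not overlap between any pair of temperatures. The rule did not use the values of the other transcripts, so these were tested. Their genes were chosen through a member high at 40 °C, so the tests were not independent of that choice. Of 4 such transcripts in the 3 genes, 2 were differentially expressed transcripts (DETs, FDR under 0.05 and fold change above 2) of 40 against 20 °C, both higher, where 12.1% of all 46250 transcripts tested were DETs and 7.54% were higher. TraesCS4B02G121300.2 rose by 3.57 on the log2 scale (approximate SE 0.20; edgeR quasi-likelihood FDR 2.5e-05). Between 40 and 30 °C, which share the heated plants with the first comparison, 1 of the 4 was a DET, where 3.56% of 44638 were (3.02% higher and 0.533% lower at 40 °C). This was TraesCS4B02G121300.2 again, higher by 2.07 (approximate SE 0.19; edgeR quasi-likelihood FDR 9.5e-04).

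Summed over its transcripts, TraesCS4B02G121300 stood at 1.34 ± 0.257 FPKM at 20 °C, 3.93 ± 0.720 at 30 °C and 19.2 ± 1.31 at 40 °C (SD, n = 3), with the member included. The member held 31.7, 13.0 and 30.4% of this sum in the 3 heated plants. In replicate 2, where the member was lowest, the other transcript was highest, and the sum had a coefficient of variation (SD over mean) of 6.80% against 37.7% for the member alone. By the division RSEM made, the heated plants differed more in the share of each transcript than in their total.

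In TraesCS5D02G103700 the member was transcript 3, of 1551 bases. It had 0.16, 0 and 0 FPKM at 20 °C, 0.27, 0 and 0.27 at 30 °C, and 4.43, 8.51 and 4.07 at 40 °C (5.67 ± 2.47, SD, n = 3), the widest spread of all members. It made up 32.0, 52.5 and 34.5% of the gene in the heated plants and 3.69% or less in the cooler ones. Transcript 2 of this gene was on throughout, with a range of 3.56 to 7.19 FPKM over the 9 plants, and its difference of 0.70 on the log2 scale between 40 and 20 °C stayed under the fold limit of a DET (approximate SE 0.15; edgeR quasi-likelihood FDR 0.017). Transcript 1 ranged from 0 to 2.97 FPKM and was no DET (log2 difference 1.91, approximate SE 0.94; edgeR quasi-likelihood FDR 0.2). Neither was a DET of 40 against 30 °C. The sum over the gene was 4.88 ± 0.930 FPKM at 20 °C, 7.36 ± 0.767 at 30 °C and 13.95 ± 2.21 at 40 °C (SD, n = 3). This sum contains the member, which the limits made high at 40 °C. Transcripts 1 and 2 alone summed to 4.18, 4.34 and 5.95 FPKM at 20 °C, lower than in any plant at 30 or 40 °C. Their sum was 7.77, 6.53 and 7.25 FPKM at 30 °C and 9.40, 7.71 and 7.73 at 40 °C. The values at 30 and 40 °C overlapped.

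In TraesCS3A02G219600 the member was transcript 2, of 675 bases, close in length to transcript 1 with 682 bases. The member was at 0 in 5 of the cooler plants, at 0.45 FPKM in 20 °C replicate 2, and at 2.65, 3.44 and 3.24 FPKM at 40 °C (3.11 ± 0.411, SD, n = 3). It had 3.51 expected fragments in the cooler plants and 79.7 at 40 °C. Transcript 1 had 4.54, 5.84 and 6.52 FPKM at 20 °C, 8.44, 8.29 and 8.40 at 30 °C, and 15.3, 18 and 10.4 at 40 °C. It rose by 1.5 on the log2 scale between 20 and 40 °C (approximate SE 0.22; edgeR quasi-likelihood FDR 3.6e-03). Between 30 and 40 °C its difference of 0.92 (approximate SE 0.19; edgeR quasi-likelihood FDR 0.035) was under the fold limit, and without 40 °C replicate 3 it was 1.06 and passed both criteria. The member held 14.7, 16.1 and 23.7% of the gene in the heated plants, so transcript 1 remained the main transcript, as transcript 2 did in TraesCS4B02G121300.

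**Figure D3:**
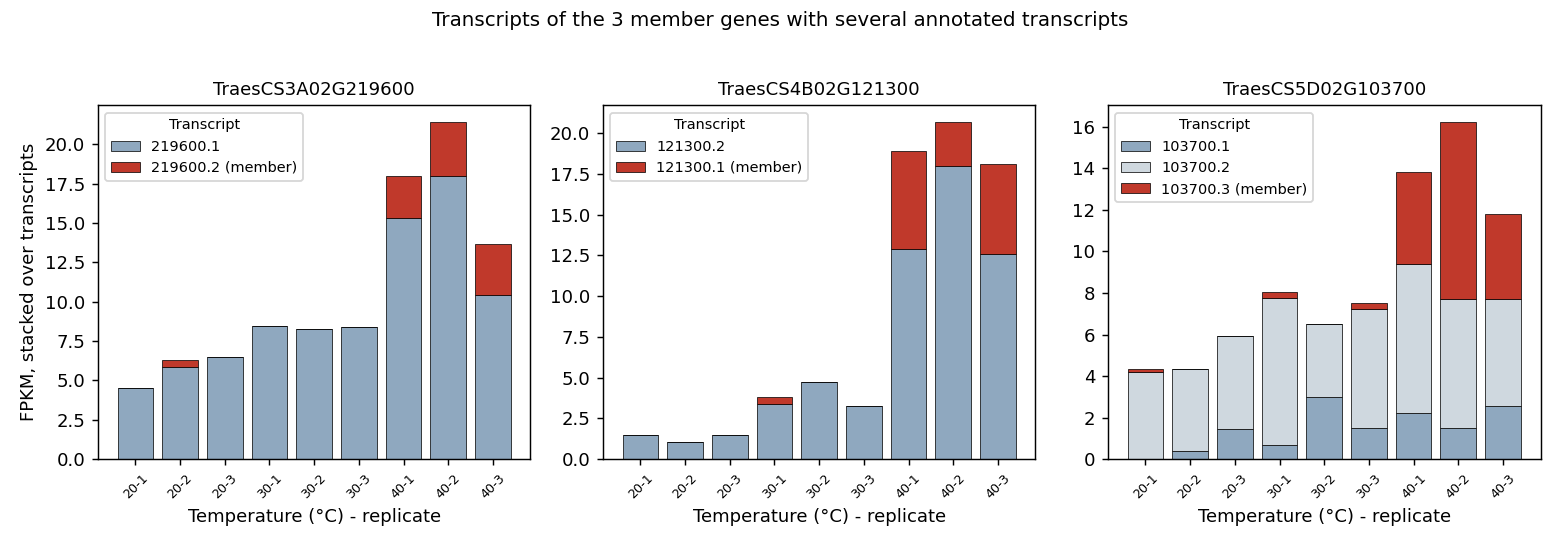
FPKM (y axis) of the annotated transcripts of the 3 member genes with several transcripts, stacked for each plant (x axis, temperature and replicate), with the member in red. The other transcripts are present at 20 and 30 °C in all 3 genes, and the red part is at most 0.45 FPKM high there and 2.65 to 8.51 FPKM at 40 °C.

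Among the 3 plants at 40 °C, the coefficient of variation of single members ran from 9.96% (TraesCS3D02G076000.1) to 43.5% (TraesCS5D02G103700.3), with a median of 21.4%. The 3 members with the lowest values were TraesCS3D02G076000.1, TraesCS3A02G219600.2 (13.2%) and TraesCS6B02G059000.1 (13.6%). TraesCS3D02G076000.1 rested on 6, 8 and 6 fragments in the heated plants, and TraesCS3A02G219600.2 on 20.85, 32.27 and 26.56 expected fragments. With so few fragments a low value does not show that the plants were alike. The 3 most variable were TraesCS5D02G103700.3, TraesCS4B02G121300.1 (37.7%) and TraesCS7A02G272600.1 (32.0%). The highest plant exceeded the lowest by 1.19 to 2.23 times. Other transcripts within the members' range of mean FPKM at 40 °C, 12325 in number, had a median of 19.1%. Requiring 2 FPKM in every heated plant itself limits how widely a member can vary. Without 40 °C replicate 2 the members' median was 8.03%, and without replicates 1 and 3 it was 26 and 17.7%.

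Replicate 3 at 40 °C was the lowest heated plant for 8 of the 12 members and the highest for none. The same plant was lowest for 57.6% of the 12325 other transcripts of that level, so the order was not particular to the members. After TMM scaling, replicate 3 was lowest for 3 members and highest for 5. Which plant carried most of a member thus changed with the scaling between libraries, while the median coefficient of variation on TMM-scaled CPM was 19.2%, close to that on FPKM.

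By their identifiers, the members lay on chromosomes of groups 3, 4, 5, 6 and 7. Group 7 held 5 of them (41.7%, against 14.5% of all annotated transcripts), TraesCS7A02G243300.1, TraesCS7A02G272600.1, TraesCS7A02G364000.1, TraesCS7D02G125800.1 and TraesCS7D02G147200.1. Group 3 held 3 members, on 3A, 3B and 3D, group 6 held 2, and groups 4 and 5 held 1 each. The A, B and D subgenomes carried 4, 3 and 5 members, beside 32.7, 33.1 and 32.0% of all annotated transcripts. With 12 members these counts are a description and no test was made of them. Identifier numbers of wheat genes follow the order along a chromosome. The nearest members on 1 chromosome, TraesCS7D02G125800 and TraesCS7D02G147200, were 214 identifier steps apart, so no run of neighbouring members was found. Whether members on different subgenomes are homoeologues cannot be read from the identifiers.

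The nearest gene on either side of each member gave 24 genes with 28 transcripts, of which 13 transcripts of 12 genes were expressed enough to be tested between 40 and 20 °C. Of these 13, 1 was a DET and was higher at 40 °C, beside 7.54% higher and 4.54% lower of all transcripts tested. Their median log2 difference was -0.13, against 0.004 over all transcripts tested. The gene that changed was TraesCS7A02G272700, next to the member TraesCS7A02G272600.1. TraesCS7A02G272700.1 had 0.90, 1.12 and 0.92 FPKM at 20 °C, 2.31, 2.17 and 1.27 at 30 °C, and 3.85, 4.15 and 2.91 at 40 °C, and rose by 2.02 on the log2 scale between 20 and 40 °C (approximate SE 0.30; edgeR quasi-likelihood FDR 4.2e-03). Unlike its neighbour it was present in every cooler plant. Between 40 and 30 °C it differed by 1.05 and was no DET (edgeR quasi-likelihood FDR 0.13). Of the 12 next transcripts tested between 40 and 30 °C, 0 were DETs by edgeR and 0 by DESeq2, with 3 at an unadjusted p under 0.05 in edgeR, beside 3.56% DETs of all transcripts tested. Whether the genes overlap was not tested.

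The median length of the members was 794.5 bases (258 to 3450), beside 1548 for transcripts with a mean above 1 FPKM at 40 °C, and 4 members were longer than the latter. Of the 12, 10 had at least 10 expected fragments in every heated plant, and the other two were the short transcripts on 3B and 3D. Where expected counts, as deposited to 2 decimals, were whole in all 9 samples, no division of fragments by RSEM was visible. This held for TraesCS3D02G076000.1, TraesCS3B02G090000.1 and TraesCS7A02G364000.1. Such counts do not show whether their fragments also matched other transcripts. The other 9 members had fractional counts. They included TraesCS7D02G125800.1 and TraesCS7A02G243300.1, whose genes have a single annotated transcript, so the division was not limited to transcripts of 1 gene. For comparison, 4.69% of the transcripts on in every plant at 40 °C had whole counts throughout.

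The limits ran through a continuous field of transcripts. Just inside the limit at 20 and 30 °C were TraesCS6B02G059000.1, TraesCS7A02G243300.1 and TraesCS7D02G125800.1, each with a highest cooler value of 0.49 FPKM. Just outside it were TraesCS4A02G067500.1 (0.50), TraesCS1A02G129500.2 (0.51) and TraesCS3B02G048600.1 (0.60). TraesCS3B02G048600.1, with 10.96, 11.9 and 7.76 FPKM at 40 °C, had a higher mean (10.2 ± 2.17, SD, n = 3) than any member and was kept out by 30 °C replicate 3 alone. Just inside the limit at 40 °C were TraesCS7A02G243300.1 (lowest heated plant 2.04), TraesCS7A02G272600.1 (2.10) and TraesCS7A02G364000.1 (2.47). Just outside were TraesCS2A02G050600.2 (1.99), TraesCS4A02G017000.1 (1.96) and TraesCS1B02G119600.1 (1.94), of which TraesCS2A02G050600.2 was at 0 in all 6 cooler plants and had 3.88, 3.24 and 1.99 FPKM at 40 °C.

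**Figure D4:**
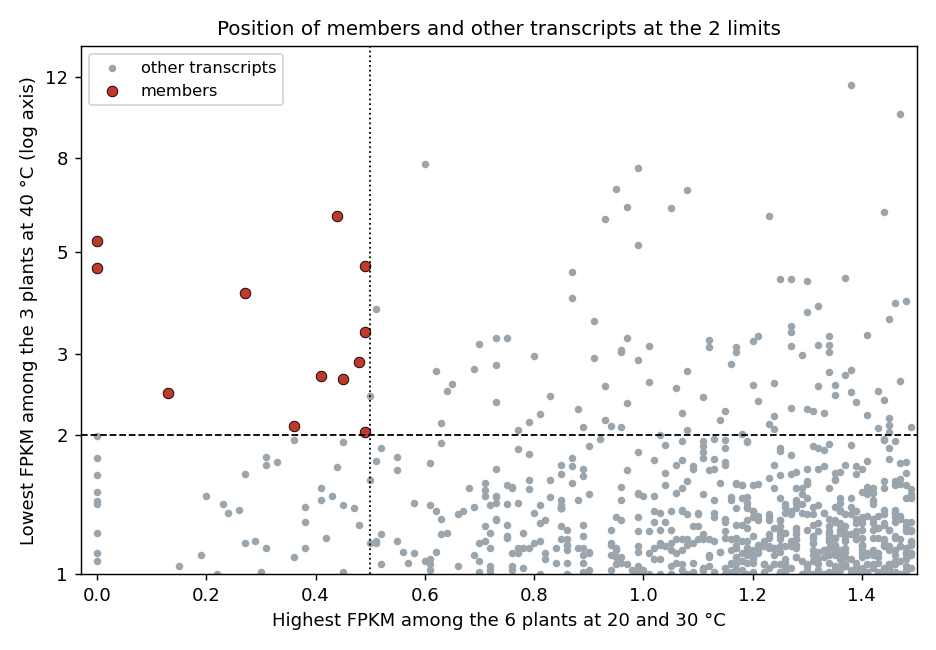
Highest FPKM among the 6 plants at 20 and 30 °C (x axis) against the lowest FPKM among the 3 plants at 40 °C (y axis, log scale) for transcripts under 1.5 on the first and at 1 or more on the second measure; red points are the 12 members and lines mark the limits of 0.5 and 2 FPKM. Members fill the upper left corner, with 3 of them at 0.49 on the x axis, and TraesCS3B02G048600.1 stands just outside at 0.60 and 7.76.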

How the data were processed

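Grains of 9 plants were sequenced as 150 bp paired reads. The authors trimmed the reads with Trimmomatic (0.36), aligned them to wheat IWGSC v1.0 and used RSEM (1.3.0), with edgeR (3.24.3) named for differential expression. The authors deposited expected counts (estimated fragments per transcript, not normalized), FPKM and TPM. The deposited tables also hold the percent of each gene held by a transcript, which was not used, and lengths in bases.

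Members and gene lists were chosen with earlier results of these data known. All 12 members are named, with the transcripts nearest to each limit (3 a side), all other transcripts of member genes, and DETs among the next genes. Members were read from FPKM in each sample. The next gene is the nearest identifier on either side. DETs were called with edgeR's quasi-likelihood test (R 4.3.3 with edgeR 4.0.16 and limma 3.58.1) on expected counts rounded to whole numbers, for the 6 samples compared and transcripts whose mean FPKM passed 1 in 1 or both groups, with TMM factors, Benjamini-Hochberg FDR under 0.05 over all transcripts tested and a fold change above 2. The approximate SE is the log2 difference divided by the root of F. On simulated counts for 46250 transcripts (40 against 20 °C) 186 of 200 changed transcripts were recovered and 2 unchanged ones called. The changed transcripts had mean counts above 20 and log2 differences of 2 or 3 in either direction, of which 89 and 97 were recovered. Recovery of smaller differences or at lower counts was not simulated. Other steps ran in Python 3.11.15 (scipy 1.17.1, pandas 2.3.3, numpy 2.4.6). Alternatives were other limits, TPM, sums over genes, the replicate block, DESeq2 (1.42.0), library size alone, no filter, 1 model over all 9 samples and each sample left out.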

Additional observations from a re-analysis of the deposited data

Results flagged for a closer look

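TraesCS4B02G121300.2, the transcript that was already on in the gene of the member TraesCS4B02G121300.1, is listed because its change from 20 °C differed between the heat levels. It was higher at 40 than at 30 °C by 2.07 on the log2 scale (edgeR quasi-likelihood FDR 9.5e-04), in 3 of 3 plants, and the member itself was at 0 in all but 1 of the plants at 20 and 30 °C.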

How the results depend on the processing

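The number of members depended on the limits. It was 3 with a limit of 0.25 FPKM at 20 and 30 °C, 2 with members at 0 there, 50 with a limit of 1, 51 with 1 FPKM or more at 40 °C and 2 with 5 or more. Limits on the mean of each temperature gave 80, which by construction include all 12. TPM gave 12, of which 10 were shared (TraesCS7A02G243300.1 and TraesCS7A02G272600.1 left), and sums over genes gave 10 genes, 9 of them member genes. Leaving out 1 sample gave 12 to 20 members, and by construction could not give fewer than 12. The other ranges over samples left out are for the 12 members chosen from all 9 samples. There were 3 to 3 genes with another transcript on. That count uses the plants at 20 and 30 °C alone, so leaving out a 40 °C plant could not change it. Among those transcripts 2 to 2 and 1 to 2 were DETs at 40 against 20 and against 30 °C. The next genes gave 1 to 1 DET, and the median coefficient of variation was 8.03 to 26%. With the limit of 0.25 FPKM the A, B and D subgenomes held 1, 1 and 1 members, and with 5 FPKM at 40 °C they held 0, 0 and 2. Without 40 °C replicate 3, TraesCS3A02G219600.1 differed by 1.06 between 40 and 30 °C.

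Same-numbered plants are not said to share anything, and their deviations from the temperature means correlated at -0.08, 0.14 and -0.13 between 20 and 40 °C and at -0.03, 0.14 and -0.18 between 30 and 40 °C. Only the plants numbered 2 correlated best with their own number. With the replicate block 4406 DETs were called in place of 5583 at 40 against 20 °C and 1061 in place of 1587 at 40 against 30 °C. The block left 2, 1 and 1 DETs among the other transcripts (against 20 and 30 °C) and the next genes, as without it. DESeq2, library size alone, no filter and 1 model over all 9 samples gave the same calls for the 4 other transcripts of member genes and, against 20 °C, for TraesCS7A02G272700.1. With 6 to 9 fragments per plant, the 2 short members are limited by depth.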

Other observations

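With the same limits, 2 transcripts were on at 20 °C alone. TraesCS5B02G193000.1 had 6.15, 4.22 and 6.35 FPKM at 20 °C and 0.49 or less in the 6 heated plants, and TraesCS5D02G200700.1 had 9.28, 3.15 and 5.85 FPKM at 20 °C and 0.36 or less in the heated plants. These transcripts lie on the B and D copies of chromosome group 5.

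Of the 20 transcripts that reached 2 FPKM in exactly 2 plants at 40 °C, 8 missed it in replicate 3, 6 in replicate 1 and 6 in replicate 2. TraesCS3D02G341000.1 had the highest mean of these (5.08 FPKM), with 0 in all 6 cooler plants and 1.79, 9.83 and 3.63 FPKM at 40 °C, which rested on 9 fragments in all. Summed over its 3 transcripts, the gene TraesCS2A02G374000 stayed at 0.37 FPKM or less at 20 and 30 °C and stood at 3.28 ± 0.0850 (SD, n = 3) at 40 °C, although none of its transcripts was a member.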
